A study of Zea mays subsp. mays x Zea mays subsp. mexicana with 20 samples.

Results

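Of 85421 small RNA loci counted in maize pollen, 714 were higher in both libraries of plants with a functional Dcl2 gene than in all 4 libraries of 2 dcl2 mutants. Each locus is an interval where small RNA reads pile up, named by number and position. The 714 loci were chosen by their measured values: at least 5 CPM (counts per 1000000 counts of the library) in both Dcl2 libraries, and every mutant library below the lower Dcl2 value. Of the 5098 loci that reached 5 CPM in both Dcl2 libraries, 14.0% met this rule, and the remaining 4384 are the loci they are set beside. All levels and differences against Dcl2 below are therefore descriptions of how the loci were selected. The comparison between the mutants is the one the rule did not make.

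Pollen was compared in 3 genotypes with 2 libraries each. The sources speak of biological replicates but differ on their number for these genotypes, and p-values here measure the spread between the libraries in the table. In dcl2-mu1 plants, both copies of Dcl2 carried a Mu transposon in the leader, and the allele had been backcrossed to the maize inbred W22 at least 4 times. The dcl2T plants were homozygous for the allele from teosinte mexicana, isolated as recombinants, so that effects of this allele and of other mexicana sequence around it cannot be told apart. The Dcl2 plants carried the functional allele. The paper describes both mutant alleles as hypomorphic, that is partly functional, so some Dcl2 function may remain in the mutants. The study's controls were wild-type plants from segregating progeny, and the sources used here do not say which of the 6 libraries carried the drive locus Tpd1. The series held 20 samples, of which the other 14 (pollen and leaf of fertile, drive and sterile plants) were not analysed here.

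DCL2 is a Dicer-like enzyme that cuts long double-stranded RNA, such as the stem of a hairpin transcript, into small interfering RNAs (siRNAs) slightly longer than those of its relative DCL4. Other Dicer-like enzymes make the remaining small RNA classes, with DCL3 acting at transposons in the RNA-directed DNA methylation pathway. In Arabidopsis, DCL2 products can start the copying of their target RNA into more double-stranded RNA. The table used here counts all read lengths together and pairs no locus with a gene or repeat, so the siRNA class of a locus, the Dcl2 transcript and pollen marker genes were not examined.

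Total counts were 1950081 and 4083990 in dcl2-mu1, 4357765 and 4920576 in dcl2T, and 3966305 and 4392281 in Dcl2, so that a single read was worth between 0.203 and 0.513 CPM. The dcl2-mu1 replicate 1 library stood apart: 78.3% of all loci had no read in it, against 34.7% to 53.3% in the other libraries. Among the 714 loci, 407 had no read in this library and 195 had none in dcl2-mu1 replicate 2, compared with 76 and 65 in dcl2T. With dcl2-mu1 replicate 1 left out, 859 loci met the rule. All 714 are among them by construction, since leaving out a mutant library only loosens the rule. Floors given below cover counting error only.

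The same rule was then applied to every other choice of 2 of the 6 libraries, to set the number 714 beside what those pairs give. The dcl2-mu1 pair was highest at 2034 loci and the dcl2T pair at 1204. The 12 pairs that mix genotypes gave 321 to 801 loci, with a median of 560. The Dcl2 pair ranked 5 of 15, inside the range of the mixed pairs, so the number of loci alone does not set Dcl2 pollen apart. With TMM-scaled library sizes it was 1104 loci for the Dcl2 pair, above the 288 to 936 of the mixed pairs, beside 1339 for dcl2-mu1 and 1305 for dcl2T. With all libraries thinned to the smallest total it was 670, again inside the mixed range of 333 to 760.

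The margin gave another order. The other 4 libraries lay at or below 25% of the lower value in 358 loci for the dcl2-mu1 pair and 51 for the dcl2T pair. This was so in 6 to 19 loci for the mixed pairs (median 14.5) and in 176 for the Dcl2 pair. Those 176 loci, 3.45% of the loci with 5 CPM in both Dcl2 libraries, are called strongly lower loci from here on, a limit chosen after the values were seen. The order of the same-genotype pairs was kept with TMM-scaled sizes (269 for dcl2-mu1, 53 for dcl2T, 201 for Dcl2, 6 to 20 for the mixed pairs) and with thinned counts (341, 55, 161 and 6 to 27 in the same order). No read at all in the other 4 libraries was found at 4 loci for the dcl2-mu1 pair, 9 for the dcl2T pair, 0 to 5 for the mixed pairs and 30 for the Dcl2 pair.

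**Figure D1:**
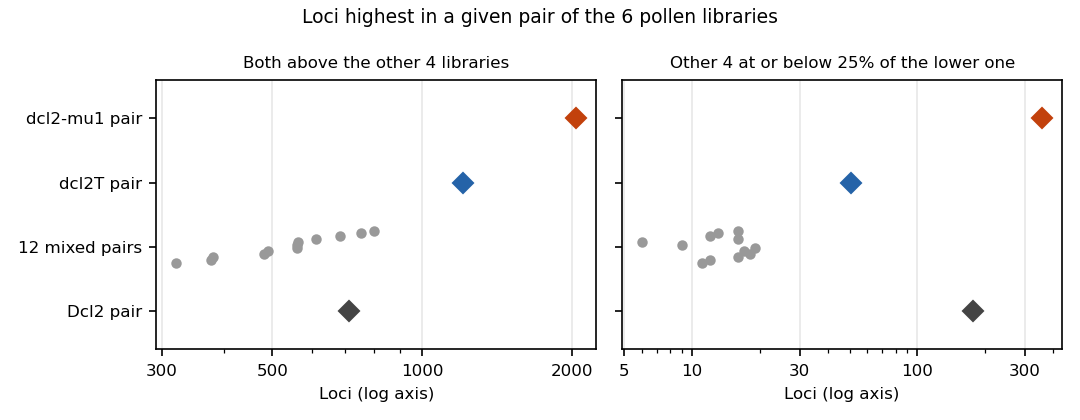
Number of loci (log axis) in which both libraries of a pair lay above the other 4 (left) or the other 4 lay at or below 25% of the lower of the pair (right), for the 15 pairs of libraries. On the left the Dcl2 pair, at 714 loci, falls among the 12 mixed pairs, which reach 801. On the right it has 176 loci against at most 19 for a mixed pair, and the dcl2-mu1 pair has 358.

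The margin varied widely among the 714 loci. The highest mutant library was at or below 0.05 of the lower Dcl2 value in 60 loci, between 0.05 and 0.1 in 40 and between 0.1 and 0.25 in 76. Only 62 lay between 0.25 and 0.5. The others crowded towards the limit of the rule, with 142 between 0.5 and 0.75, 183 between 0.75 and 0.9 and 151 above 0.9. The median over all 714 was 72.5% of the lower Dcl2 value, while in the strongly lower loci it was 8.64%.

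**Figure D2:**
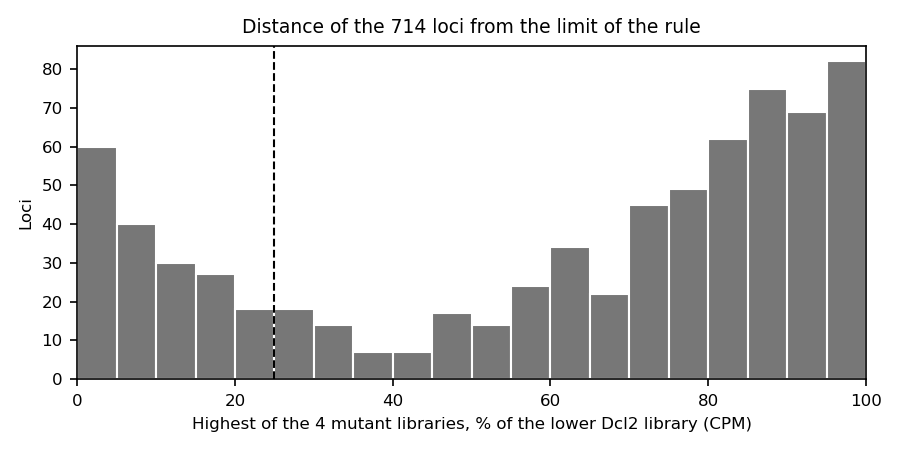
Number of loci by the highest of the 4 mutant libraries, as a percentage of the lower Dcl2 library in CPM. The dashed line marks 25%, with 176 of the 714 loci to its left and 151 loci crowded above 0.9 of the lower Dcl2 value.

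At the limit itself, mutant and Dcl2 values were close. Cluster_6943 on chromosome 1 (182148603 to 182149677, positions being those of the locus table throughout) held 883 and 1039 CPM in dcl2-mu1, 956 and 1119 CPM in dcl2T, and 1353 and 1122 CPM in Dcl2, and was just inside the rule. Cluster_73276 and Cluster_74554 on chromosome 9 were also just inside, with the highest mutant library at 99.6% and 99.1% of the lower Dcl2 value. Just outside were Cluster_41309 on chromosome 4, Cluster_64270 and Cluster_58535, both on chromosome 7, at 101%, 101% and 102%.

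The 10 most abundant members carried most of the members' reads but were not strongly lower. The 714 loci together held 8.09% and 7.91% of all counts in dcl2-mu1, 6.87% and 7.32% in dcl2T, and 18.5% and 17.6% in Dcl2. The 4 most abundant held 5.27% ± 0.64 of dcl2-mu1 counts, 3.11% ± 0.227 of dcl2T counts and 12.0% ± 0.677 of Dcl2 counts (mean ± SD, n = 2 each). They held over 50% of the members' counts in dcl2-mu1 and Dcl2, and less than that in dcl2T. Without the 10 most abundant, the other 704 loci held 1.44% ± 0.32, 1.94% ± 0.0177 and 3.55% ± 0.212 of counts in the same order. Over all 714 loci the share in dcl2-mu1 exceeded that in dcl2T by 0.906 percentage points. Without the 10 most abundant it was lower by 0.496, written as dcl2-mu1 minus dcl2T of -0.496. The exact two-sided permutation test between the mutants gave p = 0.33 in both cases, the smallest that 2 libraries against 2 allow.

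Cluster_66207 on chromosome 8 (32579531 to 32609201) was the most abundant, a locus of 29671 bp with 25684 and 20356 CPM in dcl2-mu1, 10490 and 10617 CPM in dcl2T, and 53932 and 49888 CPM in Dcl2. Its neighbour Cluster_66205 (32541762 to 32562866) had 15630 and 12891 CPM in dcl2-mu1, 8080 and 7891 CPM in dcl2T, and 41426 and 34771 CPM in Dcl2. Cluster_36249 on chromosome 4 (117693135 to 117703803) had 6246 and 4419 CPM in dcl2-mu1, 2734 and 2490 CPM in dcl2T, and 13263 and 12956 CPM in Dcl2. In all 3 loci the 3 genotypes did not overlap, and dcl2T was the lowest. The difference of dcl2-mu1 from dcl2T was 0.90 (SE 0.22), 0.62 (SE 0.23) and 0.79 (SE 0.23) on the log2 scale of edgeR's fit across all loci, with adjusted p of 0.137, 0.326 and 0.216 after Benjamini-Hochberg, so none was called. The sources do not say how reads matching several places were assigned, and neighbouring loci of this kind may share reads.

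In other members among the 12 most abundant, dcl2T was not the lowest of the genotypes without overlap. Cluster_47833 on chromosome 5 (157190641 to 157200867) had 9625 and 10467 CPM in dcl2-mu1, 8234 and 11752 CPM in dcl2T, and 16132 and 17562 CPM in Dcl2, with the mutants overlapping. Cluster_22038 on chromosome 2 (234994884 to 234997823) had 3944 and 5212 CPM in dcl2-mu1, 5287 and 5862 CPM in dcl2T, and 7007 and 5991 CPM in Dcl2. In Cluster_80187 on chromosome 10 (34539950 to 34553536) the values were 2250 and 2027 CPM in dcl2-mu1, 4771 and 4570 CPM in dcl2T, and 4842 and 5701 CPM in Dcl2. Here dcl2T was close to Dcl2, and dcl2-mu1 lay below both, by -1.34 (SE 0.23) against dcl2T on the log2 scale, with an adjusted p of 0.0354 in edgeR (Benjamini-Hochberg) that missed the limit of 0.01. The next 5 loci (Cluster_15997, Cluster_6878, Cluster_51789, Cluster_73386 and Cluster_83779) had a Dcl2 mean between 2681 and 3943 CPM, and their highest mutant library was at 86.5% to 93.9% of the lower Dcl2 value.

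Cluster_83347 on chromosome 10 (118703684 to 118703864) was the twelfth in abundance and only 181 bp long. It had 261 and 367 CPM in dcl2-mu1, 786 and 648 CPM in dcl2T, and 1335 and 2714 CPM in Dcl2. The order dcl2-mu1, dcl2T, Dcl2 held here without overlap, although the Dcl2 libraries differed most among the 12.

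**Figure D3:**
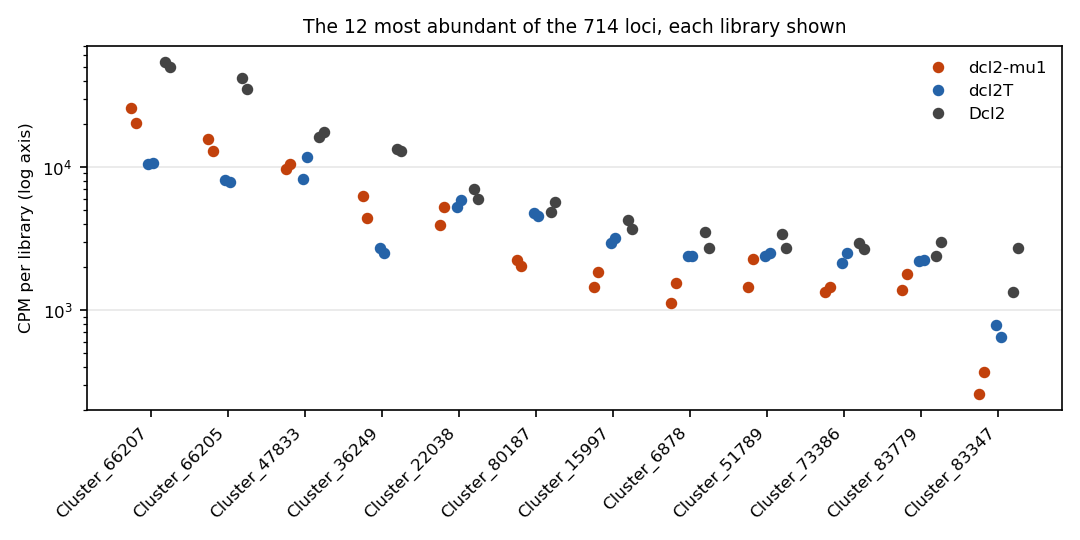
CPM in each library (log axis) for the 12 most abundant of the 714 loci, ordered by their Dcl2 mean. Each point is 1 library. In Cluster_66207, Cluster_66205 and Cluster_36249 the dcl2T points are lowest, while in Cluster_80187 and Cluster_83347 the dcl2-mu1 points are lowest.

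The strongly lower loci lay in the lower part of the abundance range. Their Dcl2 mean ranged from 5.28 to 82.6 CPM, with a median of 13.1 CPM, and they held 0.00319% of dcl2-mu1 counts, 0.0136% of dcl2T counts and 0.278% of Dcl2 counts (means of 2 libraries). Of the 84 members with at least 50 CPM in both Dcl2 libraries, 1 was strongly lower. This was Cluster_26036 on chromosome 3 (96251937 to 96254767), with no read in either dcl2-mu1 library, 1.61 and 3.66 CPM in dcl2T, and 63.8 and 101 CPM in Dcl2. The next in margin among these 84 were Cluster_24186 on chromosome 3 (37116814 to 37116930), Cluster_19852 on chromosome 2, Cluster_57975 on chromosome 7 and Cluster_33104 on chromosome 4. Their highest mutant library was at 25.6% to 36.6% of the lower Dcl2 value, with Cluster_66205 following them. Cluster_24186, 117 bp long, had 65.6 and 116 CPM in dcl2-mu1, 88.8 and 117 CPM in dcl2T, and 475 and 456 CPM in Dcl2, so the mutants overlapped and both stood well below Dcl2.

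In the strongly lower loci 96.0% had no read in dcl2-mu1 replicate 1 and 73.3% had none in dcl2-mu1 replicate 2. The shares were 36.4% and 33.0% in dcl2T and 0% in Dcl2, where the rule demands reads. Both dcl2-mu1 libraries together were without a read in 122 of the 176 loci, and both dcl2T libraries in 35. In 30 loci, all 4 mutant libraries were empty, and these were short, with a median length of 345 bp.

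The most abundant of the 30 was Cluster_85113, 796 bp on an unplaced scaffold, with 25.7 and 32.6 CPM in Dcl2. The floor was set at 3 counts over the 2 libraries of a genotype (0.497 CPM in dcl2-mu1 and 0.323 CPM in dcl2T). The Dcl2 mean of Cluster_85113 lay 58.6-fold above the dcl2-mu1 floor and 90.1-fold above the dcl2T floor. Cluster_83670 on chromosome 10 (126203630 to 126204747) had 19.4 and 35.3 CPM in Dcl2, with a mean 55.0-fold and 84.6-fold above the same floors. For Cluster_62212, Cluster_74446, Cluster_35768 and Cluster_85351 the Dcl2 means were 24.5, 23.5, 17.0 and 13.9 CPM. These means lay 28.0-fold to 49.2-fold above the dcl2-mu1 floor and 43.1-fold to 75.7-fold above the dcl2T floor. The folds do not cover the spread between the Dcl2 libraries and would be smaller for the lower library. The Dcl2 values were 35.3 and 13.7 CPM in Cluster_62212 and 21.7 and 25.3 CPM in Cluster_74446. They were 11.8 and 22.1 CPM in Cluster_35768 and 21.9 and 5.92 CPM in Cluster_85351. Whether such a locus makes no siRNA at all in a mutant was not detectable at this depth.

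The fit across all loci, edgeR's quasi-likelihood fit adjusted by Benjamini-Hochberg, calls a locus at adjusted p of 0.01 or less with a change of 2 or more on the log2 scale. Its calls against Dcl2 use the contrast that chose the loci and are given as a description. All 714 passed its filter on low counts, because 5 CPM in both Dcl2 libraries suffices for that. It called 12 of the 714 lower in dcl2-mu1 than in Dcl2, beside 0.186% of the 22558 loci tested, and 2 lower in dcl2T than in Dcl2, beside 0.00887%. These 2 were Cluster_66207 and Cluster_36249. DESeq2 called 205 and 69 in the same comparisons. No share over all loci is given for DESeq2, so nothing is read from these larger numbers. The 12 calls became 4 without dcl2-mu1 replicate 1, 27 without dcl2-mu1 replicate 2 and 29 without either dcl2T library. The 2 calls became 0 without dcl2T replicate 1 and 1 without dcl2T replicate 2, and without either Dcl2 library edgeR called 0 in both comparisons.

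Between the mutants, the mean of the 2 libraries was lower in dcl2-mu1 in 572 of the 714 loci (80.1%), higher in 112 and at 0 in both in 30. In the 4384 other loci with 5 CPM in both Dcl2 libraries it was lower in dcl2-mu1 in 2387 (54.4%). Relative to the Dcl2 mean, the median level was 20.0% in dcl2-mu1 and 47.3% in dcl2T. In those 4384 other loci, the medians were 98.1% and 108%. Both dcl2-mu1 libraries lay below both dcl2T libraries in 313 of the 714 (43.8%), beside 33.2% of all 5098 loci with that minimum. The reverse held in 31 (4.34%), beside 19.7% of the 5098. The difference between these shares was not tested, and the rule itself required every mutant value to be low.

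These counts rest in part on dcl2-mu1 replicate 1, whose part in them was not tested. Without it, dcl2-mu1 lay below both dcl2T libraries in 360 of the 714 loci and above them in 139. Leaving out dcl2-mu1 replicate 2 gave 494 and 69, and leaving out dcl2T replicate 2 gave 385 and 59. With a library fewer the condition is looser, so both counts could only rise from 313 and 31. How far they depend on a library is therefore not read from these numbers. With TMM-scaled sizes 367 were lower and 14 higher in dcl2-mu1. Thinned counts gave 267 and 27. No share over the 5098 loci is given for these settings, so a change in the 714 cannot be told apart from a shift of all loci.

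In edgeR's test between the mutants calls were few: 4 of the 714 (0.56%) were lower in dcl2-mu1, beside 0.199% of the loci tested, and 0 were higher, beside 0.164%. Among the 4384 other loci with 5 CPM in both Dcl2 libraries, 37 (0.844%) were called lower, a larger share than in the 714. Many of the 714 passed the filter only through their Dcl2 reads, and the 30 without a read in either mutant could not be called, so nothing about the 714 is read from these shares. At an unadjusted p under 0.05, edgeR counted 159 of the 714 lower and 10 higher. Among the 4384 other loci it counted 597 and 180, and among all 22558 loci tested 2242 and 761. DESeq2 called 27 of the 714 lower and 0 higher, and no share over all loci is given for it. The 4 calls became 2 without dcl2-mu1 replicate 1, 7 without dcl2-mu1 replicate 2, and 1 without either Dcl2 library. Without dcl2-mu1 replicate 1, 1 locus was called higher.

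Cluster_79293 on chromosome 10 (9086448 to 9089031) was the most stable of the 4. It had 13.3 and 7.10 CPM in dcl2-mu1, 338 and 400 CPM in dcl2T, and 456 and 550 CPM in Dcl2. On the log2 scale dcl2-mu1 differed from dcl2T by -5.44 (SE 0.35, adjusted p = 0.0002, edgeR quasi-likelihood with Benjamini-Hochberg adjustment), and it was called in all 13 alternative fits, with an adjusted p of up to 0.00702. Cluster_65745 on chromosome 8 (20129338 to 20129822) had no read in dcl2-mu1, 67.7 and 73.8 CPM in dcl2T, and 96.6 and 110 CPM in Dcl2. Its adjusted p was 0.000427 (edgeR quasi-likelihood, Benjamini-Hochberg), 0.0143 at most over the alternatives, and 10 of the 13 alternatives called it.

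The other calls were less firm. Cluster_84035 on chromosome 10 (133948831 to 133951863) had 326 and 395 CPM in dcl2-mu1, 1519 and 1501 CPM in dcl2T, and 1659 and 1850 CPM in Dcl2. Cluster_41544 on chromosome 4 (247756167 to 247757056), named because only 4 loci were called, had no read in dcl2-mu1, 17.7 and 16.1 CPM in dcl2T, and 22.7 and 23.5 CPM in Dcl2. For both the adjusted p was 0.00877 (edgeR quasi-likelihood, Benjamini-Hochberg). Over the alternatives it reached 0.101 for Cluster_84035 and 0.0763 for Cluster_41544, and 6 and 5 of the 13 fits called them. In all 4 loci the dcl2T level was much nearer to Dcl2 than to dcl2-mu1, and none of them was strongly lower.

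Sorted by the mean of each mutant, 223 of the 714 loci (31.2%) were at or below 25% of the Dcl2 mean in both mutants. A further 168 (23.5%) were so in dcl2-mu1 alone, among them the 4 loci called above. In 14 (1.96%) this held in dcl2T alone, and in 309 (43.3%) in neither. The same split is not given for the 4384 other loci with 5 CPM in both Dcl2 libraries. Of those, 12.7% and 1.98% had no read in dcl2-mu1 replicates 1 and 2, against 0.137% and 0.274% in dcl2T. Empty dcl2-mu1 libraries were therefore not limited to the members. The 14 loci low in dcl2T alone included Cluster_66207, Cluster_66205 and Cluster_36249, which carried most of their counts, and held 4.76% and 3.85% of all counts in dcl2-mu1, 2.13% and 2.10% in dcl2T, and 11.0% and 9.88% in Dcl2. The 168 loci low in dcl2-mu1 alone held 0.073% and 0.117% in dcl2-mu1, 0.422% and 0.399% in dcl2T, and 0.666% and 0.862% in Dcl2.

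**Figure D4:**
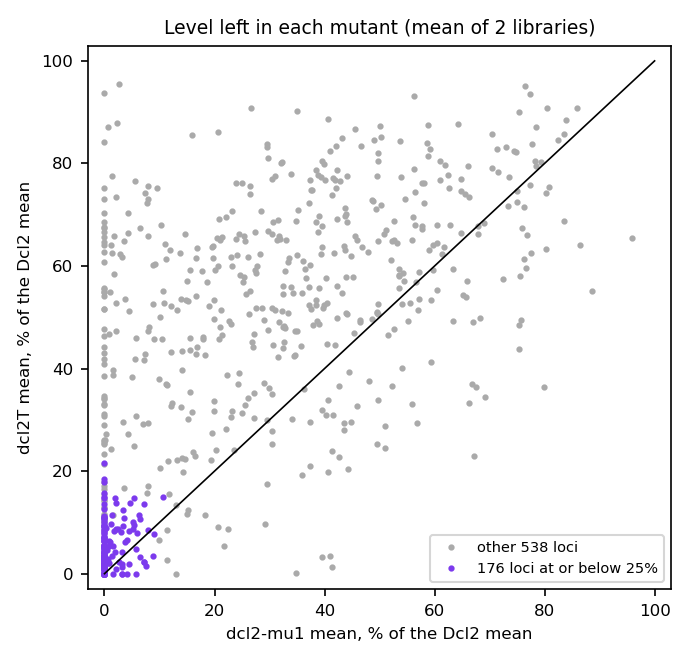
Level left in each mutant at the 714 loci, as the mean of 2 libraries in percent of the Dcl2 mean, with dcl2-mu1 on the x axis and dcl2T on the y axis. The line marks equal levels. Of the 714 points, 572 have the lower mean in dcl2-mu1 and 112 the higher, beside 54.4% with the lower mean in dcl2-mu1 among the 4384 other loci, and 180 have no read in dcl2-mu1.

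The members were shorter than the loci they are set beside. Their median length was 1345 bp (1093 bp in the strongly lower loci and 1431 bp in the other 538, an order that was reversed at 20 to 50 CPM with 2293 and 1116 bp), against 2516 bp in the 4384 other loci with 5 CPM in both Dcl2 libraries. They were shorter in every class of Dcl2 abundance: at 5 to 10 CPM the medians were 1363 and 2306 bp, at 10 to 20 CPM 1181 and 2482 bp, and at 1000 CPM or more 1621 and 2829 bp. Abundance and share of members moved together less simply. Members were 18.3% of loci at 5 to 10 CPM, 7.12% at 200 to 1000 CPM and 11.1% above that. Strongly lower loci were 3.77%, 4.69% and 4.47% of loci in the classes from 5 to 10, 10 to 20 and 20 to 50 CPM, and 0.175% at 50 to 200 CPM.

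All 10 chromosomes held members, from 11.5% of their loci with 5 CPM in both Dcl2 libraries on chromosome 1 to 18.1% on chromosome 10. On the unplaced scaffolds, 22 of 50 such loci (44.0%) were members and 11 were strongly lower, spread with the other members over 16 scaffolds.

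Part of the strongly lower loci lay close together on each chromosome, and the others were spread. For every chromosome the 5-Mb window with most of them was found, a step chosen after the data were seen, and the windows were placed on these loci themselves. The 10 windows held 80 of the 176 strongly lower loci (45.5%), and over 50% of those of the chromosome on 4 of the 10. They covered 2.36% of the length spanned by the table and 157 of the 5098 loci with 5 CPM in both Dcl2 libraries (3.08%). Of those 157 loci, 80 (51.0%) were strongly lower and 104 (66.2%) were members, compared with 1.74% and 12.0% outside the windows. Of the 538 other members, 4.46% lay in the windows.

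Loci chosen in the same way from the mutant pairs were rare there. Of the 358 loci in which the other 4 libraries were at or below 25% of the dcl2-mu1 pair, 2 lay in the windows, and of the 51 such loci for dcl2T none did. Since the windows were placed on the Dcl2 loci, these numbers describe the windows and are no test. With windows of 2 Mb and 10 Mb the share of the strongly lower loci inside was 35.8% and 54.0%. Found anew without each library in turn, it was 41.2% to 44.8% when a mutant library was left out, 32.5% without Dcl2 replicate 1 and 25.3% without Dcl2 replicate 2. The last 2 values come from 440 and 403 loci, since a single Dcl2 library then sets the rule.

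Distances were taken from the midpoint between the first and the last strongly lower locus in each window. This is not the middle of the window, so the first class below does not match the windows exactly. Away from this midpoint the share was lower. Within 2.5 Mb, 51.3% of loci with 5 CPM in both Dcl2 libraries were strongly lower, at 2.5 to 5 Mb 8.57%, at 5 to 10 Mb 10.4%, at 10 to 20 Mb 3.83%, at 20 to 50 Mb 1.68% and beyond 50 Mb 1.02%. The other members stayed between 8.57% and 16.7% in all these classes. Since the strongly lower loci placed the windows, their high share in the first class was fixed in advance. The classes and the contrast with the other members are a description and no test. The table holds no annotation of centromeres, repeats or genes, so what lies in the windows was not examined.

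**Figure D5:**
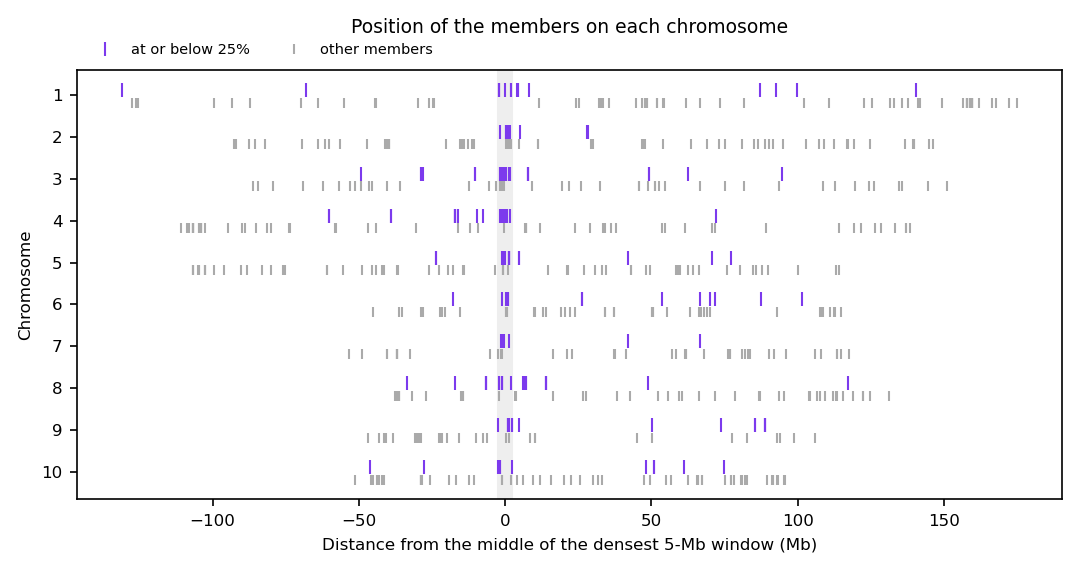
Position of the members on the 10 chromosomes, as distance in Mb. Distances are from the midpoint between the first and last strongly lower locus in the densest 5-Mb window, although the axis label names the window middle. The grey band reaches 2.5 Mb to either side of this midpoint and is not exactly the window. Each mark is 1 locus, strongly lower loci in purple above and other members in grey below. The windows hold 80 of 176 strongly lower loci but 24 of the 538 others.

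The windows on chromosomes 4 and 3 held the largest numbers. On chromosome 4 (108978203 to 113978202) 16 of the 28 strongly lower loci of that chromosome lay inside, and on chromosome 3 (86738895 to 91738894) 14 of 27. On chromosome 2 (93516964 to 98516963) it was 8 of 11 and on chromosome 5 (106560504 to 111560503) 7 of 14. The smallest group was on chromosome 7 (56964579 to 61964578), with 4 of 6, and the smallest share on chromosome 8 (44958646 to 49958645), with 6 of 20.

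Single loci in the windows, named after their values were seen, show how low the mutants were. Cluster_25814 on chromosome 3 (89565408 to 89569231) had no read in dcl2-mu1, 2.07 and 3.25 CPM in dcl2T, and 39.3 and 59.2 CPM in Dcl2. Cluster_35979 on chromosome 4 (109365233 to 109369087) had no read in dcl2-mu1 or dcl2T replicate 2, 0.229 CPM in dcl2T replicate 1, which is 1 read, and 33.5 and 26.0 CPM in Dcl2. Cluster_80611 on chromosome 10 (49516208 to 49519338) had no read in dcl2-mu1, 0.229 and 1.22 CPM in dcl2T, and 31.0 and 38.0 CPM in Dcl2. In each of them the dcl2-mu1 libraries were empty, and dcl2T kept from 1 read in Cluster_35979 to 25 reads in Cluster_25814 over its libraries.

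The windows as a whole kept most of their small RNA in the mutants. All loci in them summed to 4381 and 4561 CPM in dcl2-mu1, 4775 and 5054 CPM in dcl2T, and 5692 and 6056 CPM in Dcl2. With the strongly lower loci taken out, the sums were 4377 and 4547 CPM in dcl2-mu1, 4728 and 4996 CPM in dcl2T, and 4590 and 4771 CPM in Dcl2, so that Dcl2 overlapped dcl2T and lay above dcl2-mu1. The window of chromosome 7 weighed most in these sums, with 2272 and 2330 CPM in dcl2-mu1, 1950 and 1759 CPM in dcl2T, and 1850 and 1548 CPM in Dcl2, so that dcl2-mu1 was highest there. Both Dcl2 libraries exceeded all mutant libraries in 7 of the 10 windows, and in 3 of the 10 when the strongly lower loci were taken out.

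Strongly lower loci also lay close together. Another of them was within 10 kb of 69 of the 176 (39.2%), while 54 of the 538 other members (10.0%) had one of their own kind that near. Of the 714 members, 134 (18.8%) had another member within 10 kb, against 1277 (29.1%) of the 4384 other loci counted among themselves, which are more numerous. The longest run of strongly lower loci alone had 3. Among all members the longest run had 4 loci on chromosome 6 (50464841 to 50476290), inside the window of that chromosome. Cluster_52419 and Cluster_52421 in this run were strongly lower. Cluster_52420 and Cluster_52424 were not, with the highest mutant library at 33.9% and 25.2% of the lower Dcl2 value. Cluster_52419 had no read in dcl2-mu1, 0.229 and 1.63 CPM in dcl2T, and 16.4 and 20.5 CPM in Dcl2. Cluster_52420 had 3.08 and 2.94 CPM in dcl2-mu1, 0.688 and 3.05 CPM in dcl2T, and 9.08 and 23.7 CPM in Dcl2, and was the one of the 4 with reads in every library. The remaining loci of the run were again empty in dcl2-mu1. Cluster_52421 had no read in dcl2-mu1, 0.688 and 0.61 CPM in dcl2T, and 23.4 and 17.3 CPM in Dcl2. Cluster_52424 had no read in dcl2-mu1 and 0 and 2.03 CPM in dcl2T, against 8.07 and 9.33 CPM in Dcl2. Neighbours of this kind may be pieces of the same transcript or repeat and are not independent.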

How the data were processed

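Small RNA was sequenced from pollen of dcl2-mu1, dcl2T and Dcl2 plants (2 libraries each). The authors trimmed reads with cutadapt, clipped the random bases at both read ends, removed structural RNA reads with Bowtie2 and defined loci with ShortStack. Collapsing of duplicate reads is not stated. The build behind the locus table and the placing of reads with several matches are not given in the sources used here. The deposited values are raw counts per locus and library, as the authors left them, without normalization. A further column was the sum of the 6 libraries and was not used.

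CPM values use the column total as denominator. The test was run in edgeR 4.0.16 under R 4.3.3 (filterByExpr with minimum count 10 and minimum total 15, TMM factors, glmQLFit and glmQLFTest over all 6 libraries, Benjamini-Hochberg adjustment over 22558 loci), after a test on simulated data. Fits without a library used the same loci. Shares of counts were compared by an exact permutation test. Python 3.11.15 with numpy 2.4.6, pandas 2.3.3, scipy 1.17.1 and matplotlib 3.10.9 was used otherwise. Alternatives were DESeq2 1.42.0, other scalings, filters, thresholds, thinned counts, a replicate block and each library left out in turn.

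The members and the rules for naming loci were chosen with earlier results of these data known. Named were the 12 most abundant members, the 6 with the widest margin among those with 50 CPM in both Dcl2 libraries, the 6 most abundant without a read in a mutant, the 3 most abundant called lower between the mutants, the 3 nearest to the limit on either side and the longest run. Of loci within 10 kb the more abundant was named, and loci named otherwise are marked. The limit of 25%, the windows and their alternatives were chosen after seeing the data. No sequence is printed because the study's sequence table uses another assembly.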

Additional observations from a re-analysis of the deposited data

How the results depend on the processing

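The number of loci meeting the rule, 714, depended on its settings. It was 1701 with a minimum of 2 CPM, 358 with 10 CPM, 1104 with TMM-scaled sizes and 238 with every mutant library at or below 50% of the lower Dcl2 value. Other pairs of libraries gave 2034 (dcl2-mu1) and 1204 (dcl2T), and among the mixed pairs those with counts farthest below 714 gave 377, 321 and 380. With a library left out it was 849 to 2844, the highest being 2844 without Dcl2 replicate 1 and 2351 without Dcl2 replicate 2. Leaving out a library only loosens the rule, so neither this number nor that of the strongly lower loci could fall. The number of strongly lower loci, 176, was 100 with a limit of 0.1 and 95 with a minimum of 10 CPM, and 183 to 440 with a library left out. Their share in the windows was 25.3% to 44.8% with a library left out. For members within 10 kb of another, 134, the count was 6 among members with 50 CPM, 84 at the 50% margin and 86 within 2 kb.

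Calls among the 714 loci changed with the test. No share over all loci is given for these alternatives, and the contrasts against Dcl2 are those that chose the loci. The counts show how calls depend on the fit, and nothing about the 714 loci is read from them. Lower in dcl2-mu1 than in dcl2T were 27 with DESeq2, 22 without a filter, 2 with a filter of 5 CPM, 1 with only these genotypes fitted and 10 at an adjusted p of at most 0.05 with no fold minimum in edgeR with Benjamini-Hochberg adjustment, and 1 to 7 with a library left out. Higher were 1 without a filter and 0 to 1 with a library left out. Lower in dcl2-mu1 than in Dcl2 were 20 with library size alone, 205 with DESeq2, 145 without a filter, 7 with a filter of 5 CPM, 40 with only these genotypes, 81 at the looser threshold and 0 to 29 with a library left out. Lower in dcl2T than in Dcl2 were 69, 45, 0, 1 and 4 with DESeq2, no filter, a filter of 5 CPM, only these genotypes and the looser threshold in edgeR, and 0 to 3 with a library left out. With the replicate number as a block, edgeR calls were 6 (lower) and 0 (higher) for dcl2-mu1 against dcl2T, 46 (lower) for dcl2-mu1 against Dcl2 and 4 (lower) for dcl2T against Dcl2. Same-numbered libraries did not deviate together (correlations of replicate differences between -0.0122 and 0.0044). This does not settle whether the numbers pair samples.

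Both dcl2-mu1 libraries lay below those of dcl2T in 360 to 494 loci with a library left out, and above in 43 to 139, or in 14 with TMM-scaled sizes. Leaving out a library could only raise both counts. The share over all loci with 5 CPM in both Dcl2 libraries is not given for these settings, so nothing about the members is read from the changes. The share of counts without the 10 most abundant members was 1.44%, 1.94% and 3.55% in dcl2-mu1, dcl2T and Dcl2, and that of all 714 members with a library left out was 7.91% to 8.09%, 6.87% to 7.32% and 17.6% to 18.5%. The median length kept within 1137 to 1790 bp. The causes were not tested, and 2 libraries per genotype limit every comparison here. At 5 CPM a locus holds few reads in the smallest library, which limits what a value of 0 says.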

Other observations

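Some members differed widely between the replicates of a mutant, while the rule itself required both Dcl2 libraries to be high. In 83 of the 714 loci (11.6%) 1 dcl2-mu1 library was at or above 50% of the lower Dcl2 value and the other at or below 5%, and replicate 1 was the lower in 80 of them. The same was found in dcl2T in 9 loci. Among the 4384 other loci with 5 CPM in both Dcl2 libraries it was found in 412 (9.4%) for dcl2-mu1, a share near that of the members, and in 19 (0.433%) for dcl2T.

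Examples chosen after their values were seen lay among the abundant members. Cluster_41970 on chromosome 5 (1100743 to 1101764) had 0 and 732 CPM in dcl2-mu1, 1.38 and 2.24 CPM in dcl2T, and 1141 and 958 CPM in Dcl2. Its neighbour Cluster_41971 (1102755 to 1103019) had 0 and 0.245 CPM in dcl2-mu1, 0 and 152 CPM in dcl2T, and 334 and 247 CPM in Dcl2. Cluster_16558 on chromosome 2 (99818784 to 99820112) had 0 and 3.67 CPM in dcl2-mu1, 357 and 4.47 CPM in dcl2T, and 630 and 696 CPM in Dcl2. At each of these loci 1 mutant library was far above the other 3, and it was not of the same genotype each time. The means of such loci describe neither library.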
